A study of Gallus gallus with 6 samples.

Results

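The genes described here are those that were expressed in chick lens epithelial cells and were close to background in lens fiber cells. They were chosen by their expression values alone: a gene had to reach at least 5 FPKM in each of 3 epithelial libraries and stay under 0.5 FPKM in each of 3 fiber libraries, and it had to carry a gene symbol that did not begin with COL, LAM, KCN, SLC or FOX. FPKM corrects the fragments sequenced from a gene for transcript length and library size, so it is a measure of abundance within a library. Of 16561 entries in the expression table, 13 genes met these limits: GEM, CHSY3, SMC2, FAM110C, VIPR1, TNFAIP6, FOSL2, CAMK1D, TACC3, DAP, CDH11, TPX2 and CDCA3. Neither the symbol exclusion nor the leaving out of unnamed entries affected the count, which was 13 without them as well.

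The lens grows from a single layer of epithelial cells on its anterior face. At the lens equator these cells leave the cell cycle, elongate and become fiber cells, which fill with crystallins and later lose their nuclei and other organelles. Epithelial cells near the equator divide, and the epithelium lays down part of the capsule around the lens.

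RNA was measured in White Leghorn chick embryos at embryonic day 13, for which the labels give neither a treatment nor an engineered allele. The epithelium and the fiber mass were separated by dissection, each taken as a whole rather than by region, and each of the 6 libraries, 3 per cell type, was made from total RNA of pooled lenses. Because the samples are bulk RNA of pooled lenses, fewer cells expressing a gene and less RNA per cell cannot be told apart. Per-animal variation is averaged within a pool, so the spread between replicates given here is a spread between pools.

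The cell type labels were checked against markers. The epithelial markers PAX6, GJA1 and PDGFRA had mean levels of 40.5, 233 and 59.7 FPKM in epithelial cells and 8.86, 38.8 and 9.62 FPKM in fiber cells, while the fiber markers BFSP2 and LGSN had means of 106 and 2.85 FPKM in epithelial cells and 1047 and 632 FPKM in fiber cells. The epithelial marker NPNT went against its list, with means of 6.33 and 21.8 FPKM. The summed level of 14 fiber marker loci in the epithelial libraries was lowest in replicate 1, at 6968 FPKM, and was 11573 and 9665 FPKM in replicates 2 and 3. Sequencing depth cannot be read from FPKM and is unknown. Entries averaging at least 0.5 FPKM over the 6 libraries were tested, a filter on low values. A gene under 0.5 FPKM in 1 cell type was therefore tested only through its level in the other, which limits its p-value or call. With no further scaling, the median log2 fold change of all 10818 entries tested was −0.62 (fiber relative to epithelial), and centring each library on its median moved it to −0.01. Of these entries, 57.7% were called lower in fiber cells and 13.1% higher by limma, where a call needed an adjusted p under 0.05 together with a change of over 0.4 in size on the log2 scale. With median centring these shares were 29.3% and 30.2%. Of the 14 fiber marker loci, 10 were called higher in fiber cells, 1 lower and 3 neither. With median centring 13 were higher and 0 lower. Of 9 epithelial marker loci, 7 were called lower, 1 higher and 1 neither, and with median centring 6 were lower and 1 higher. Fold changes below are on the scale of log2(FPKM + 0.1), fiber relative to epithelial, and are given without centring unless stated.

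**Figure D1:**
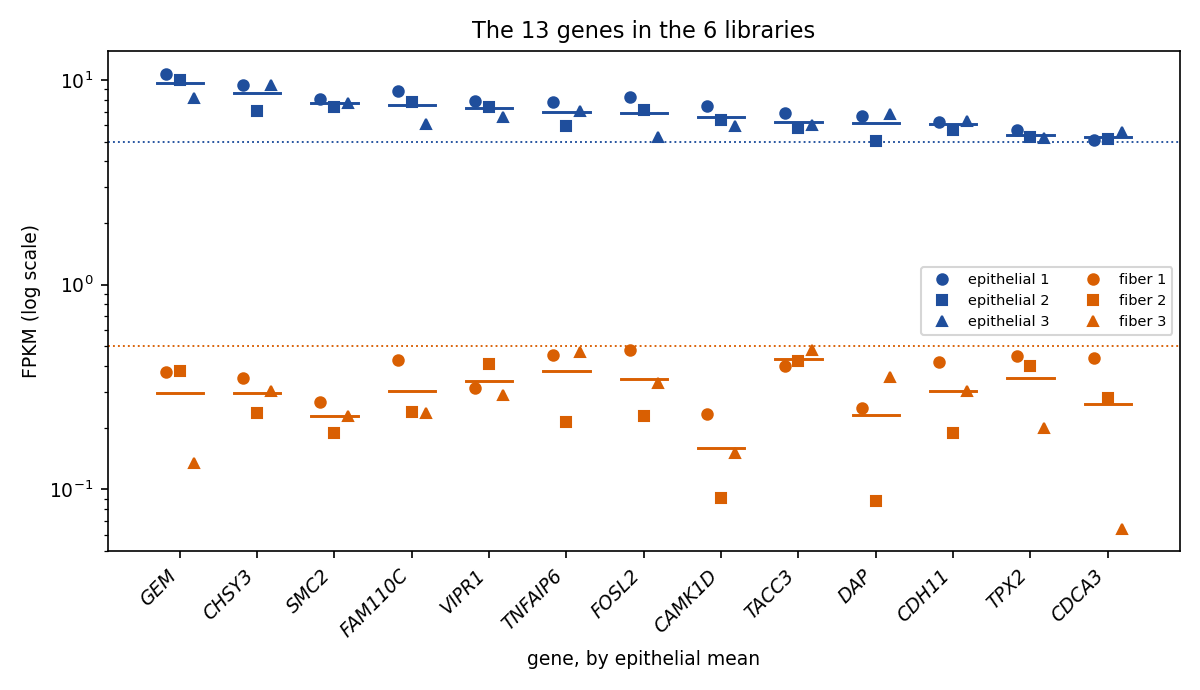
FPKM (log axis) of the 13 genes in each of the 6 libraries, epithelial in blue and fiber in orange; bars mark group means and dotted lines the limits of 5 and 0.5 FPKM that chose the genes. Epithelial values lie between 5.03 and 10.8 FPKM and fiber values between 0.0642 and 0.479 FPKM.

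Levels, ratios and fold changes of the 13 genes are descriptions, since these same values selected them, and no test is given for them. All 13 passed the filter on low values and all were called lower, which the limits of the rule fix almost entirely and which is set beside the 57.7% of all entries only for scale. The ratio of the epithelial mean to the fiber mean ran from 14.4 for TACC3 to 41.6 for CAMK1D. Put the other way, the fiber libraries held between 2.40% and 6.96% of the epithelial level. None of the 13 genes was listed at the table's floor of 0.0001 FPKM in any fiber library. A low level was therefore recorded in each of the 3 fiber pools, rather than no measured transcript. The part of epithelial cells carried over by the dissection in this low level was not tested.

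Of the 13 genes, 4 act in mitosis. SMC2 is a core ATPase subunit of the condensin complexes, which compact chromosomes before they separate. Its level was 8.06, 7.34 and 7.71 FPKM in the epithelial libraries and 0.267, 0.188 and 0.229 FPKM in the fiber libraries, a log2 fold change of −4.58 ± 0.15 (moderated SE from limma, n = 3 per cell type). The epithelial libraries agreed closely, with a coefficient of variation of 4.67%, the lowest of the 13 genes.

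TPX2 brings the kinase Aurora A to spindle microtubules and activates it, a role worked out in frog and human cells. It measured 5.70, 5.28 and 5.21 FPKM in epithelial cells and 0.448, 0.399 and 0.199 FPKM in fiber cells, a log2 fold change of −3.66 ± 0.23. TACC3 is an Aurora A substrate that, in human cells, joins clathrin and the microtubule polymerase CKAP5 on the spindle. TACC3 measured 6.91, 5.80 and 5.99 FPKM in epithelial cells and 0.402, 0.423 and 0.477 FPKM in fiber cells, a log2 fold change of −3.57 ± 0.14. It kept the largest share of its epithelial level among the 13 genes, and its fiber libraries differed least from each other, with a coefficient of variation of 8.95%.

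CDCA3 is a cell division cycle gene whose product, in frog and human cells, promotes entry into mitosis. Its epithelial values of 5.10, 5.12 and 5.54 FPKM stood just above the limit, and its fiber values were 0.438, 0.279 and 0.0642 FPKM. The log2 fold change was −4.05 ± 0.39, with the largest standard error of the 13, and the fiber coefficient of variation was 72.0%. For CDCA3 the fiber replicates therefore differed severalfold among themselves while all of them lay well below the epithelial replicates.

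The rest of the mitotic machinery was followed in a list of 58 genes for the spindle and for chromosome segregation, of which 48 were found. Leaving out the 4 members, 43 genes were tested, a filter that a gene low in fiber cells passes through its epithelial level: 39 were called lower in fiber cells, 2 higher and 2 neither, with a median log2 fold change of −2.25 beside −0.62 over all entries. Of all entries, 57.7% were called lower and 13.1% higher. With median centring 36 of the list were lower and 4 higher, beside 29.3% and 30.2% of all entries. A fall with a log2 fold change of at least 3 in size was called for 20 of the 43, against 2.63% of all entries tested. Of the 48 genes, 15 reached 5 FPKM in every epithelial library, and 4 of these 15, the members, also stayed under 0.5 FPKM in every fiber library. Over all loci, 13 of 4295 met both limits. The list was made to include these members, so this count is no result about mitotic genes.

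Single genes of the list show the range of these decreases. TOP2A, the topoisomerase that untangles chromosomes in dividing cells, measured 8.22, 7.06 and 7.56 FPKM in epithelial cells and 0.571, 0.476 and 0.484 FPKM in fiber cells (log2 fold change −3.66 ± 0.13, limma adjusted p = 9.7e-07). It missed the fiber limit in 1 library, and its values are also listed for an unnamed entry. CDK1, the kinase that drives entry into mitosis, went from a mean of 6.14 to 0.488 FPKM (−3.42 ± 0.17, limma adjusted p = 3.0e-06). Other genes kept more of a higher level: ANLN, a cytokinesis scaffold, went from 57.1 to 7.85 FPKM (−2.86 ± 0.15, limma adjusted p = 3.2e-06), and CCNB2, a mitotic cyclin, went from 24.8 to 9.98 FPKM (−1.29 ± 0.12, limma adjusted p = 4.0e-05).

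The exceptions are named after their values were seen. CDC20, an activator of the anaphase-promoting complex, rose: its level was 2.71, 2.23 and 2.24 FPKM in epithelial cells and 7.33, 7.91 and 7.55 FPKM in fiber cells (log2 fold change 1.63 ± 0.11, limma adjusted p = 9.9e-06). The groups did not overlap. CIT, a kinase of cytokinesis, also rose, from a mean of 3.05 to 6.31 FPKM (1.03 ± 0.12, limma adjusted p = 9.1e-05). CDC25B, a phosphatase that activates cyclin-dependent kinases, had means of 7.85 and 9.37 FPKM, a difference of 0.25 ± 0.13 that was not called without centring and was called higher with it. PRC1, a microtubule bundler of the central spindle, was the other gene not called, and its values are also listed for the neighbouring genes VPS33B and HDDC3, so they cannot be assigned to PRC1.

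**Figure D2:**
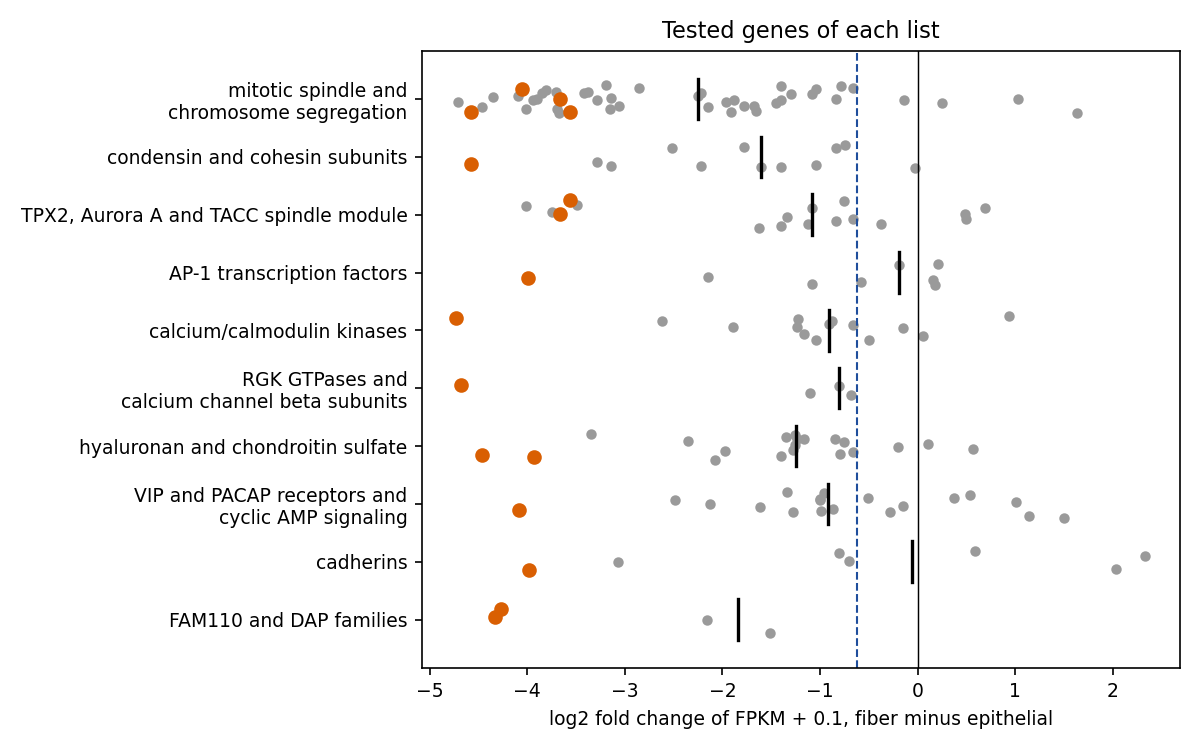
Log2 fold change of FPKM + 0.1, fiber minus epithelial, for each tested gene of the 10 lists; orange points are the 13 genes, gray points other genes of a list, black bars the median of the gray points, and the dashed line the median of −0.62 over all entries tested. The mitotic list reaches furthest to the left among the gray points, and the AP-1 and cadherin medians of −0.19 and −0.06 lie to the right of the dashed line.

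Within the condensin and cohesin complexes, 10 of the 11 tested subunits other than SMC2 were called lower and 1 was not called. Their median log2 fold change was −1.61 beside −0.62 over all entries, of which 57.7% were called lower and 13.1% higher. With median centring 8 of the 11 were lower and 1 higher, beside 29.3% and 30.2% of all entries. SMC4, the partner with which SMC2 forms the condensin core, was at 2.80, 2.86 and 2.42 FPKM in epithelial cells and 0.610, 0.937 and 0.625 FPKM in fiber cells (−1.78 ± 0.19, limma adjusted p = 6.8e-05). Fiber cells held 26.9% of SMC4 and 2.96% of SMC2, whose products are found in the same complexes. A low share was fixed by the rule for SMC2 and not for SMC4, so this gap is no result. The condensin subunits NCAPD2 (−2.22 ± 0.14, limma adjusted p = 6.7e-06) and NCAPG (−3.29 ± 0.22, limma adjusted p = 9.0e-06) fell as well, and differences in fold between subunits were not tested. NCAPG passed the filter only through its epithelial level. Cohesin holds sister chromatids together and also shapes chromatin in cells that no longer divide. Its subunit gene RAD21 went from a mean of 7.77 to 2.50 FPKM (−1.61 ± 0.20, limma adjusted p = 0.00016). STAG2 had means of 6.42 and 6.29 FPKM (−0.03 ± 0.16, limma adjusted p = 0.87), although it was called higher with median centring.

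Among the 15 tested partners of TPX2, Aurora A and the TACC proteins, 11 were called lower, 3 higher and 1 neither, with a median of −1.08. All entries had 57.7% called lower and 13.1% higher, with a median of −0.62. With median centring 8 of the 15 were lower and 3 higher, beside 29.3% and 30.2% of all entries. AURKA, which encodes Aurora A, was at 4.15, 3.79 and 3.55 FPKM in epithelial cells and 1.90, 1.62 and 1.77 FPKM in fiber cells (−1.08 ± 0.12, limma adjusted p = 9.9e-05, called lower with median centring and not called with quantile normalization). Fiber cells held 46.0% of the epithelial AURKA level and 6.46% of that of TPX2. The rule had fixed a low share for TPX2 and not for AURKA, so this gap is no result. KPNA2, an importin that holds TPX2 inactive away from chromosomes in frog extracts, went from 25.8, 20.6 and 23.4 FPKM to 1.87, 1.88 and 2.16 FPKM (−3.49 ± 0.12, limma adjusted p = 7.0e-07). Its partner KPNB1, the general import receptor, rose from a mean of 69.4 to 97.2 FPKM (0.49 ± 0.08, limma adjusted p = 0.00072). The TACC3 paralog TACC1 rose from 6.76 to 9.55 FPKM (0.50 ± 0.12, limma adjusted p = 0.0055). Clathrin was divided: the heavy chain gene CLTC fell from 72.3 to 33.2 FPKM (−1.12 ± 0.10, limma adjusted p = 2.9e-05), and the light chain gene CLTA rose from 30.7 to 49.2 FPKM (0.69 ± 0.12, limma adjusted p = 0.00091).

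Genes of signaling and transcription, 4 of 13, formed the next group by role. GEM is a small GTPase of the RGK family that, in mammalian cells, binds the beta subunits of voltage-gated calcium channels and reduces their current. It had the highest epithelial level of the 13 genes, at 10.8, 9.96 and 8.18 FPKM, and measured 0.375, 0.381 and 0.134 FPKM in fiber cells, a log2 fold change of −4.68 ± 0.28. The other RGK genes found, RRAD and REM1, stayed under the mean of 0.5 FPKM needed for testing. The 3 beta subunit genes tested were lower, their log2 fold changes lying between −1.10 and −0.68, and none was called in either direction with median centring. Over all entries tested the median was −0.62, and 57.7% were called lower.

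CAMK1D encodes a calcium/calmodulin-dependent protein kinase, which is switched on by calmodulin and by an upstream kinase. Its values were 7.43, 6.35 and 5.97 FPKM in epithelial cells and 0.234, 0.0909 and 0.151 FPKM in fiber cells, a log2 fold change of −4.72 ± 0.23. Among 4295 loci at 5 FPKM or more in every epithelial library, it ranked 2 by the ratio of epithelial to fiber mean, and TACC3, at rank 32, had the lowest ratio of the 13. The paralogs stayed at several FPKM: CAMK1 had means of 5.81 and 4.08 FPKM (−0.50 ± 0.10, limma adjusted p = 0.0017, and 0.11 with median centring, not called), and CAMK1G of 7.85 and 3.78 FPKM (−1.04 ± 0.15, limma adjusted p = 0.00033). The upstream kinase gene CAMKK2 fell from 2.86 to 0.715 FPKM (−1.89 ± 0.21, limma adjusted p = 8.9e-05), and CAMKK1 from 1.12 to 0.104 FPKM (−2.61 ± 0.31, limma adjusted p = 0.00012). CAMKK1 passed the filter only through its epithelial level. The calmodulin gene CALM2 fell from 101 to 53.6 FPKM (−0.91 ± 0.09, limma adjusted p = 6.1e-05, not called with median centring). Of the 13 tested genes of this list other than CAMK1D, 10 were called lower, 1 higher and 2 neither, and with median centring 6 were lower and 2 higher. Their median log2 fold change was −0.91 beside −0.62 over all entries. Of all entries, 57.7% were called lower and 13.1% higher, and with median centring 29.3% and 30.2%.

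VIPR1 is a G protein-coupled receptor for the peptides VIP and PACAP that raises cyclic AMP. It was at 7.92, 7.38 and 6.56 FPKM in epithelial cells and 0.313, 0.410 and 0.289 FPKM in fiber cells, a log2 fold change of −4.08 ± 0.16. The other receptor gene, VIPR2, was lower in both cell types, at 3.30, 1.09 and 1.72 FPKM and at 0.282, 0.233 and 0.230 FPKM (−2.48 ± 0.36, limma adjusted p = 0.00035). VIPR2 passed the filter only through its epithelial level. Its epithelial coefficient of variation of 55.9% exceeded that of each of the 13 genes. The ligand gene VIP was listed at the floor in all 6 libraries. Genes downstream of the receptors moved in both directions: GNAS, for the stimulatory G protein subunit, rose from 6.93 to 10.1 FPKM (0.54 ± 0.08, limma adjusted p = 0.00046), and the adenylyl cyclase gene ADCY8 fell from 14.2 to 7.04 FPKM (limma adjusted p = 4.0e-05, not called with median centring). PDE3B, which encodes a phosphodiesterase that degrades cyclic AMP, rose from 3.61 to 8.07 FPKM (1.14 ± 0.13, limma adjusted p = 8.3e-05). Over the 18 tested genes of this list other than VIPR1, 11 were called lower, 4 higher and 3 neither, and with median centring 5 were lower and 6 higher. These shares lay near those of all entries, of which 57.7% were lower without centring and 29.3% lower and 30.2% higher with it, so they are no result about the list. The count includes CREB1, whose listed means of 6495 and 2674 FPKM are far above those of the other genes of the list and may not be its own.

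FOSL2 encodes a FOS-related subunit of the AP-1 transcription factor, which binds DNA as a pair with a JUN protein. Its level was 8.29, 7.16 and 5.29 FPKM in epithelial cells and 0.479, 0.227 and 0.331 FPKM in fiber cells, a log2 fold change of −3.99 ± 0.25. The epithelial replicates spread more than those of the other 12 members, with a coefficient of variation of 21.9%, and the fiber value of replicate 1 was the nearest of all to the limit of 0.5 FPKM. The other FOS genes found were low: FOS had means of 0.302 and 0.192 FPKM and FOSB was at or near the floor. The JUN partners were present in both cell types. JUN had means of 18.1 and 20.5 FPKM (0.18 ± 0.08, limma adjusted p = 0.066, called higher with median centring), and JUND of 30.5 and 20.5 FPKM (−0.58 ± 0.07, limma adjusted p = 0.00018, and 0.03 with median centring, not called). Of the 7 tested AP-1 genes other than FOSL2, 3 were called lower and none higher, with a median of −0.19, and with median centring 1 was lower and 3 were higher. Over all entries 57.7% were lower and 13.1% higher, and 29.3% and 30.2% with centring. The count of lower AP-1 genes is therefore no result about the list.

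Matrix and adhesion genes made up a further 3 of the 13. CHSY3 encodes a chondroitin synthase, which with partner enzymes lengthens the chondroitin sulfate chains of proteoglycans. Its values were 9.40, 7.03 and 9.49 FPKM in epithelial cells and 0.348, 0.236 and 0.301 FPKM in fiber cells, a log2 fold change of −4.46 ± 0.18. The paralog CHSY1 went from 4.58, 4.14 and 3.88 FPKM to 1.86, 1.25 and 1.98 FPKM (−1.28 ± 0.18, limma adjusted p = 0.00032). Fiber cells held 40.5% of CHSY1 and 3.41% of CHSY3, a gap that is no result because the rule fixed a low share for CHSY3. CHPF2, a partner of these synthases, was near the same level in both cell types, at 13.6 and 11.8 FPKM (−0.20 ± 0.10, limma adjusted p = 0.10), and was called higher with median centring. CHST3, a chondroitin sulfotransferase, fell from 2.13 to 0.120 FPKM (−3.34 ± 0.24, limma adjusted p = 1.0e-05), and CHST11, another, from 6.28 to 2.75 FPKM (−1.17 ± 0.11, limma adjusted p = 4.2e-05). CHST3 passed the filter only through its epithelial level.

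TNFAIP6 encodes a secreted protein that binds hyaluronan and, in mammals, moves protein chains onto it in inflamed and ovarian matrix. It measured 7.83, 5.98 and 7.08 FPKM in epithelial cells and 0.456, 0.212 and 0.469 FPKM in fiber cells, a log2 fold change of −3.93 ± 0.25. Other genes of the hyaluronan matrix were scarce in both cell types. HAS2, a hyaluronan synthase, had means of 0.0739 and 0.0166 FPKM, VCAN, the proteoglycan versican, of 0.290 and 0.0538 FPKM, and CD44, a hyaluronan receptor, of 0.107 and 0.0332 FPKM. On the joint list for hyaluronan and chondroitin sulfate, 39 loci were found and 18 were tested besides TNFAIP6 and CHSY3, of which 15 were called lower, 1 higher and 2 neither, with a median of −1.25. All entries had 57.7% called lower and 13.1% higher, with a median of −0.62. With median centring 11 of the 18 were lower and 3 higher, beside 29.3% and 30.2% of all entries. The gene called higher was HYAL3, named after its values were seen, which shared its values with the neighbouring gene NAA80 and lost the call without epithelial replicate 3, fiber replicate 2 or fiber replicate 3, at 0.49, 0.53 and 0.52 (log2 fold change) beside 0.57 with all libraries.

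CDH11 is a cadherin, a calcium-dependent cell adhesion molecule known from mesenchymal and bone-forming cells. It was at 6.27, 5.70 and 6.30 FPKM in epithelial cells and 0.418, 0.188 and 0.302 FPKM in fiber cells, a log2 fold change of −3.98 ± 0.22. The main lens cadherins were kept in fiber cells: CDH2, or N-cadherin, went from a mean of 114 to 65.2 FPKM (−0.81 ± 0.09, limma adjusted p = 7.5e-05) and CDH1, or E-cadherin, from 14.0 to 8.59 FPKM (−0.70 ± 0.10, limma adjusted p = 0.00028), neither being called with median centring. CDH6, a cadherin of the same type as CDH11, was at 7.89, 5.73 and 8.12 FPKM in epithelial cells and 0.974, 0.574 and 0.793 FPKM in fiber cells (−3.07 ± 0.21, limma adjusted p = 9.0e-06). Moving the other way were CDH13, from 0.295 to 1.84 FPKM (2.33 ± 0.26, limma adjusted p = 9.0e-05), and CDH18, from 0.218 to 1.28 FPKM (2.04 ± 0.38, limma adjusted p = 0.0015). CDH13 and CDH18 passed the filter only through their fiber level. Of 18 cadherin loci found, 6 were tested besides CDH11. Of these 6, 3 were called lower, 2 higher and 1 neither, with a median of −0.06, while centring gave 1 lower and 3 higher. Without the filter on low values more cadherins were called lower, so the count and the median depend on the filter. Over all entries the shares were 57.7% lower and 13.1% higher, and 29.3% and 30.2% with centring. The count of lower cadherins is therefore no result about the list.

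FAM110C and DAP complete the 13. FAM110C belongs to a small family whose human members lie at the centrosome. Its values were 8.81, 7.78 and 6.09 FPKM in epithelial cells and 0.427, 0.240 and 0.237 FPKM in fiber cells, a log2 fold change of −4.27 ± 0.22. The paralog FAM110B fell from a mean of 4.35 to 0.929 FPKM (−2.16 ± 0.26, limma adjusted p = 0.00012). FAM110D, the other of 2 tested relatives, was also called lower, but not with median centring (−0.91 beside −1.52) and not once epithelial replicate 1 or 2 or fiber replicate 1 or 2 was left out (−1.53 to −1.04), and it shared its values with the neighbouring gene PDIK1L. DAP, found in human cells as a gene needed for death after interferon-gamma, was at 6.70, 5.03 and 6.85 FPKM in epithelial cells and 0.2495, 0.0877 and 0.353 FPKM in fiber cells, a log2 fold change of −4.33 ± 0.32. Its lowest epithelial value, in replicate 2, was the nearest of the 13 genes to the limit of 5 FPKM.

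The limits place the 13 genes in a narrow band of expression. All of them had an epithelial mean between 5 and 10 FPKM, where 13 of 2101 loci met the rule, and none of the 1193 loci from 10 to 20 FPKM, the 623 from 20 to 50 FPKM or the 378 above did. A fixed limit of 0.5 FPKM asks for a larger ratio of a gene with a higher epithelial level. A ratio of 10 or more was found for 67 of the 4295 loci, or 1.56%, and in the same 4 bands for 35, 18, 13 and 1 loci. Examples chosen after their values were seen were R3HDML, with means of 61.4 and 1.80 FPKM, and EMILIN2, an extracellular matrix glycoprotein, with means of 31.9 and 1.05 FPKM. Both had ratios, 34.1 and 30.4, within the range of the 13 genes and were outside the rule only through the fiber limit. Exchanging the cell types in the rule, with at least 5 FPKM in every fiber library and under 0.5 FPKM in every epithelial library, gave 12 loci.

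**Figure D3:**
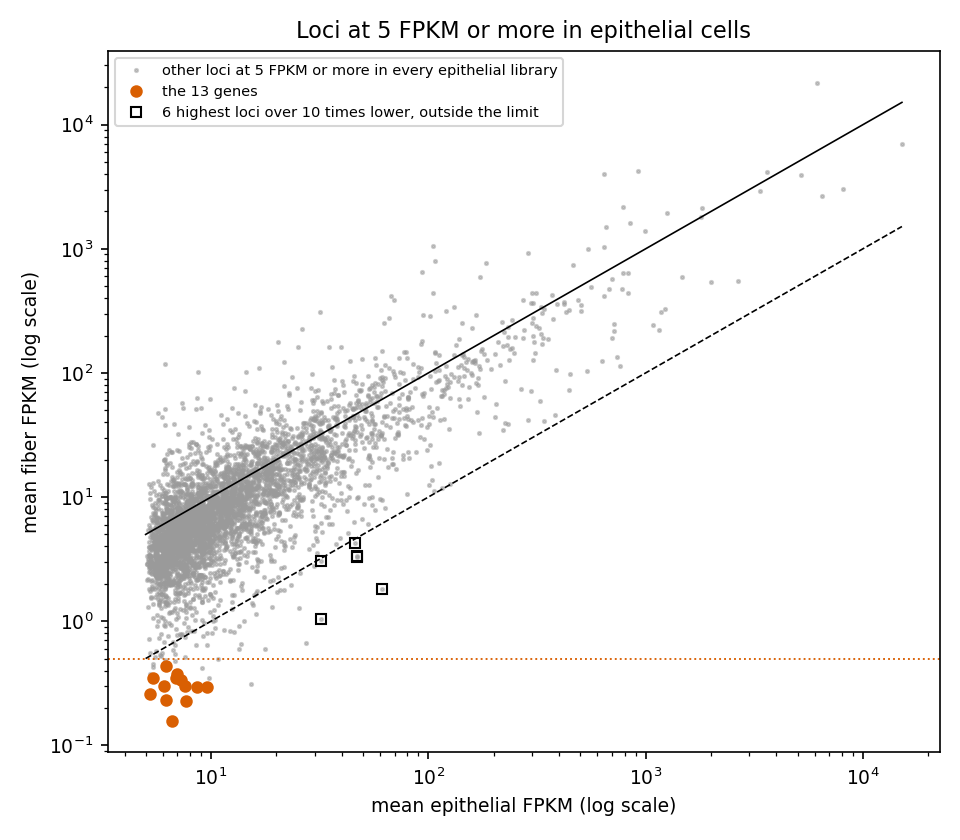
Mean fiber FPKM against mean epithelial FPKM (both axes log) for the 4295 loci at 5 FPKM or more in every epithelial library; orange points are the 13 genes, squares the 6 loci of highest epithelial mean that were at least 10 times lower in fiber cells yet above the limit, the solid line equal levels and the dashed line a ratio of 10. The 13 genes sit in the lower left corner, under the dotted line at 0.5 FPKM.

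The members and the loci just past the limits differed little in value. On the fiber side, FOSL2 at 0.479 FPKM and TACC3 at 0.477 FPKM in their highest fiber library lay just inside. PCDH7 at 0.507, CYTL1 at 0.551, S1PR3 at 0.558, NANOS1 at 0.570, TOP2A at 0.571 and DISP1 at 0.575 FPKM lay just outside. On the epithelial side, DAP at 5.03 FPKM and CDCA3 at 5.10 FPKM in their lowest epithelial library lay just inside, and DLGAP5 at 4.75, UBE2C at 4.75, HMGB2 at 4.70, ABCC9 at 4.66, PLK1 at 4.53 and MCM5 at 4.38 FPKM lay just outside. TOP2A, DLGAP5, UBE2C and PLK1, 4 of these 12 genes, stood on the mitotic list. That list held 48 loci, 15 of them among the 4295 loci at 5 FPKM or more in every epithelial library. The 12 were picked by the values of the rule, so their count is no result about mitotic genes.

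The 3 replicates of a cell type differed in a shared direction for many of the 13 genes, which followed that over all loci only in part. Epithelial replicate 1 had the highest value of 9 of the 13 genes, and of 49.6% of the 9900 tested loci. Epithelial replicates 2 and 3 had the lowest value of 6 genes each, and of 44.9% and 32.0% of the tested loci. The summed level of the 13 genes was 99.2, 85.9 and 86.3 FPKM in the epithelial libraries and 4.85, 3.36 and 3.54 FPKM in the fiber libraries. Epithelial replicate 1, with the highest sum, was also the library with the lowest summed fiber markers, and the part of this difference in the levels of the 13 genes was not tested. In fiber cells, replicate 2 had the lowest value of 7 genes, and of 49.8% of the tested loci. Fiber replicate 1 had the highest value of 8 genes but of 33.4% of the tested loci, where replicate 3 was highest most often, at 41.4%. Without fiber replicate 1 the rule gave 21 genes, where leaving out any library can only keep or add genes.

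Markers of other tissues that the dissection could carry along were measured beside these levels. The pigment cell list summed to between 33.7 and 37.3 FPKM in epithelial and between 10.2 and 13.7 FPKM in fiber libraries. TRPM1, a cation channel gene, made up most of this sum, with means of 29.1 and 9.34 FPKM, and without it the list summed to 7.58, 7.43 and 4.46 FPKM in epithelial libraries and 1.89, 2.08 and 3.44 FPKM in fiber libraries. Its defining genes TYR and MLANA were at most 0.475 and 0.433 FPKM in epithelial libraries and at the floor in every fiber library. The endothelial list, 9 loci of which 3 reached 1 FPKM in some library, summed to between 5.12 and 6.48 FPKM in epithelial and between 0.7501 and 1.58 FPKM in fiber libraries. Its 3 tested loci, PECAM1, KDR and CLDN5, fell from means of 1.66, 1.46 and 2.14 FPKM to 0.502, 0.219 and 0.127 FPKM. By limma each of them was lower in fiber cells, both without and with median centring. KDR and CLDN5 passed the filter only through their epithelial level. TIE1 was too low for testing and went the other way, from a mean of 0.144 to 0.216 FPKM. VWF was at or near the floor throughout. The ciliary epithelium list summed to between 81.9 and 98.7 FPKM in epithelial and between 25.1 and 29.1 FPKM in fiber libraries. Nearly all of this sum came from OPTC, MSX1 and CPAMD8, with ZIC2 at the floor in every library. The erythrocyte list had sums between 1.64 and 2.13 FPKM in epithelial and between 8.63 and 14.8 FPKM in fiber libraries, where HBA1 and HBZ carried the sum. EPB42 of the same list went the other way, from a mean of 1.77 to 0.569 FPKM, and HBBA and HBE stayed at or near the floor. Skeletal muscle genes summed to between 1.98 and 2.15 FPKM in epithelial and between 0.779 and 1.48 FPKM in fiber libraries, and immune cell genes to between 8.81 and 8.92 FPKM and between 5.85 and 6.77 FPKM. Members of the immune list moved in both directions, CD74 from a mean of 4.89 to 2.11 FPKM and CD3E from 0.0725 to 2.55 FPKM. The sums for neural retina (2.24 to 2.83 and 2.37 to 3.30 FPKM) and for cornea and connective tissue (7.86 to 9.58 and 7.55 to 8.03 FPKM) overlapped between the cell types. Over all 10 marker lists, the lens lists included, the sums of 8 did not overlap between cell types, which gives the smallest p that an exact permutation test of 3 against 3 allows, p = 0.1 two-sided, adjusted p = 0.125 over the 10 lists. The limma calls over all entries, 57.7% lower in fiber cells and 13.1% higher, are another measure. How many single entries had no overlap was not counted, so the count of 8 is no result about other tissues. The part of cells of other tissues in the levels of the 13 genes was not tested.

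The positions of the 13 genes were compared with those of their neighbours, by the order of protein-coding genes in the RefSeq annotation of a later chicken assembly, GRCg7b. All 13 were found there, with 26 adjacent genes. Of these, 22 were in the expression table and 16 were tested. Among the 16, 13 were called lower in fiber cells and none higher, beside 57.7% lower and 13.1% higher among all entries. With median centring 8 were lower and 2 higher, beside 29.3% and 30.2% of all entries. The 2 were TMEM129 next to TACC3 and USP5 next to CDCA3. A fall with a log2 fold change of at least 3 in size was called for 1 neighbour, against 2.63% of all entries tested.

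That neighbour was CCDC3, which encodes a secreted coiled-coil protein and follows CAMK1D. It was at 31.3, 25.9 and 24.5 FPKM in epithelial cells and 1.03, 0.466 and 0.490 FPKM in fiber cells (−5.23 ± 0.26, limma adjusted p = 2.7e-06). The ratio of its means, 41.1, was close to the 41.6 of CAMK1D, and whether reads were shared between the adjacent genes was not tested. The gene on the other side of CAMK1D, CDC123, had a log2 fold change of −0.62 ± 0.09, at the median of all entries. FGFR3, an FGF receptor beside TACC3, fell from a mean of 65.3 to 17.4 FPKM (−1.91 ± 0.11, limma adjusted p = 5.6e-06), whereas TMEM129 on the other side had means of 5.93 and 5.98 FPKM (0.01 ± 0.11, limma adjusted p = 0.96). Around TNFAIP6 both neighbours fell, RIF1 from 8.69 to 2.20 FPKM (−1.94 ± 0.12, limma adjusted p = 5.7e-06) and NMI from 5.89 to 2.07 FPKM (−1.47 ± 0.13, limma adjusted p = 2.7e-05). In that annotation 2 adjacent genes overlap a member, PTGR1 with SMC2 and an unnamed locus with FOSL2, so reads in the shared stretches could be counted for either gene. PTGR1 went from a mean of 4.92 to 1.61 FPKM (−1.57 ± 0.14, limma adjusted p = 2.9e-05). None of the 13 genes shared all 6 of its values with another entry of the table.

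**Figure D4:**
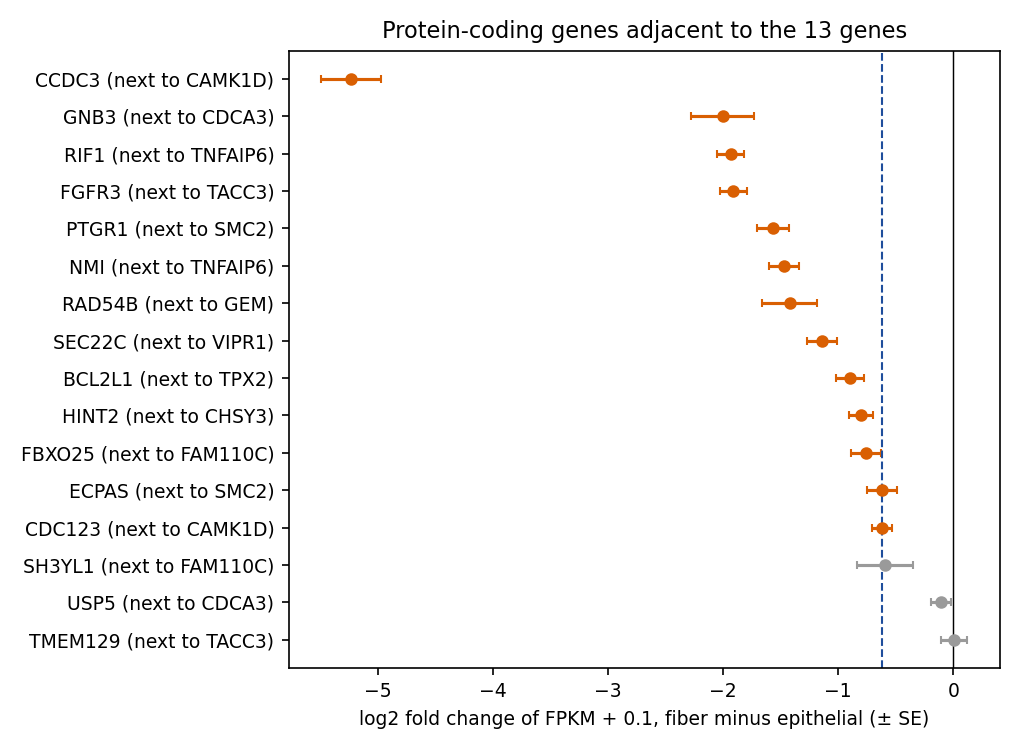
Log2 fold change of FPKM + 0.1, fiber minus epithelial, with its standard error for the 16 tested genes adjacent to the 13 genes; orange points were called lower, gray points were not called, and the dashed line marks the median of −0.62 over all entries tested. CCDC3 stands apart at −5.23, and TMEM129 lies furthest to the right at 0.01.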

How the data were processed

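Total RNA was extracted by the authors with TRIZOL, made into stranded total RNA libraries and sequenced paired-end. Per the labels, Cutadapt trimmed the reads, Bowtie2 and HISAT2 mapped them to the galGal6 build with Ensembl 96 annotation, and StringTie gave the deposited FPKM values, with 0.0001 in place of 0. The authors' columns of average FPKM, fold change (a ratio), log2 fold change and p-value were deposited in the same table and not used. The authors name edgeR for their differential expression. FPKM carry no depth, so precision came from the spread between replicates, which limma moderates toward that of all entries tested. The standard errors given are these moderated ones.

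Entries averaging 0.5 FPKM or more across all 6 libraries were tested (10818, leaving out 5743) by limma 3.58.1 in R 4.3.3 on log2(FPKM + 0.1) with a mean-variance trend and Benjamini-Hochberg adjustment, cell type being the only term. The method was tested on simulated data with as many rises as falls and no overall shift between cell types. That test therefore does not bear on the choice of scaling. Entries with 6 identical values counted as 1 locus. Tables and plots used Python 3.11.15, pandas 2.3.3 and matplotlib 3.10.9.

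The members and the 10 gene lists were chosen with earlier results of these data known. Every member was named; of each list, up to 6 genes of at least 5 FPKM in a cell type, and relatives or complex partners of members; and the 6 loci nearest outside each limit. Other genes, including those adjacent to members, were chosen after their values were seen. The labels call the samples biological replicates of pooled lenses. Marker lists were compared by exact permutation tests of 3 against 3. Alternatives were other pseudocounts, filters, scalings, limma settings, limits, a replicate block and leaving out each library. Methylation data were not analysed here, and no sequence is printed. A few list genes are not reported here by name.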

Additional observations from a re-analysis of the deposited data

How the results depend on the processing

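All 260 fitted fold changes of the 13 genes under 20 alternatives kept their direction and their call, between −5.38 for CAMK1D and −2.25 for TPX2, which the rule makes likely. The number of genes found depended on the limits. An epithelial floor of 4, 6 or 10 FPKM gave 24, 5 or 0 loci, and a fiber limit of 0.25 or 1 FPKM gave 1 or 46. Limits on group means gave 30, median centring before the limits 3 and division by the 75th percentile 7. Leaving out 1 library can only keep or add loci under this rule. It gave from 13 to 21, with 21 without fiber replicate 1 and 19 without epithelial replicate 2. Over all entries, 6240 were called lower and 1415 higher. Median centring gave 3167 and 3263, and 3186 and 3287 with the replicate block, added after the data were seen. Quantile normalization gave 3228 and 2884, and the 75th percentile 4729 lower and 2131 higher. Scaling is therefore the main limit on any direction near the median.

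Called lower without members, the lists moved as follows. Median centring, with the value under centring plus block in parentheses where it differed, gave 1 AP-1 gene, 6 (5) calcium/calmodulin kinase genes, 0 RGK and channel subunit genes, 5 cyclic AMP genes, 1 cadherin, 1 gene of the FAM110 and DAP families and 8 adjacent genes. Quantile normalization gave 1 AP-1 gene, 5 kinase genes, 0 channel subunit genes and 1 FAM110 gene, and the 75th percentile 1 FAM110 gene. A mean of at least 1 FPKM gave 6 kinase genes; no filter gave 8 cadherins and 1 FAM110 gene; the test against a log2 fold change of 0.4 gave 1 channel subunit gene and 1 FAM110 gene. Leaving out 1 library gave from 1 to 2 FAM110 genes. Of 1395 values for the other 70 genes followed by name, 1342 kept direction and call, 39 lost the call, 10 gained it and 4 turned, these being JUND at 0.032 and CAMK1 at 0.11 under median centring, with and without the block.

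Same-numbered epithelial and fiber libraries deviated together weakly across genes, with correlations of 0.086, 0.066 and 0.067, each the highest for its library, and the labels do not say that a number marks a shared pool, so the pairing was not used; the replicate block alone gave 6268 entries lower and 1436 higher and changed no call on the lists by over 1.5 times. The planned promoter searches were not run. Depth is unknown, so fiber values under 0.5 FPKM carry an error seen only in their replicates.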
